A study of Mus musculus with 15 samples.

Results

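Brain libraries from PLP-α-synuclein and control mice were sorted by a pair of regional markers, each side holding libraries of both genotypes, and 11 of the 15 libraries in the series are described here. The libraries were selected on their own counts. A library was called hindbrain-marker when its Hoxa5 count, scaled by the column total to CPM, reached at least 20, and olfactory-marker when Omp reached at least 20 CPM. This gave 4 hindbrain-marker libraries (WT male 3, WT female 3, TG female 1 and TG female 4) and 7 olfactory-marker libraries (WT male 1, WT male 2, WT female 1, WT female 4, TG female 2, TG male 1 and TG male 3). The lowest Hoxa5 value inside the rule was 69.5 CPM in WT male 3, and the highest outside it was 2.00 CPM in TG female 3. The lowest Omp value inside the rule was 44.0 CPM in WT male 1, and the highest outside it was 2.77 CPM in TG female 1. The other 4 libraries, WT male 4, WT female 2, TG female 3 and TG male 4, met neither limit.

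Every library came from RNA labelled as brain hemisphere of a mouse aged 12 months. TG animals were homozygous for a transgene that expresses human α-synuclein from the PLP promoter, which is active in oligodendrocytes, the myelin-forming glia, and WT animals were non-transgenic mice of the C57Bl/6 background. Library preparation was stranded and removed ribosomal RNA, although the molecule field reads polyA RNA, and sequenced as paired reads, and the deposited values are counts per gene. The hindbrain-marker side held 1 WT male, 1 WT female and 2 TG female libraries and no TG male, and the olfactory-marker side held 2 WT male, 2 WT female, 1 TG female and 2 TG male libraries. Each of the 4 genotype-by-sex groups had its own number in the sample titles, so whatever a group shared cannot be told apart from its genotype and sex. Each library has its own sample record, and the labels name no animal. The p-values below therefore measure the spread between these samples.

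The adult brain keeps a molecular record of how it was laid out in the embryo. Hox genes, which lie in 4 clusters and encode homeodomain transcription factors, are switched on in the hindbrain and spinal cord and stay silent in the forebrain, and within a cluster the genes with higher numbers are expressed further back. Emx and Dlx genes mark the forebrain, and the olfactory bulb at its front receives the axons of olfactory sensory neurons, which contain the olfactory marker protein Omp. The bulb relays their input through glutamatergic mitral and tufted cells and holds many GABA-releasing granule and periglomerular interneurons that are renewed in adult life.

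The sequences of 6 promoters and 6 microRNAs are shown first, because the results on patterning, transmitter and microRNA genes turn on these loci. The promoter sequences are RefSeq's, on GRCm38.p6, and each covers the 250 bases before the annotated start. Capitals mark matches, on either strand, to CCAAT, to the promoter box TATAAA, to the homeodomain core TAATTA, to the cAMP response element TGACGTCA and to the further motif CTGGCAC. No motif is contained in another. Hoxa5, peripherin (Prph) and tryptophan hydroxylase 2 (Tph2) were higher in the hindbrain-marker libraries, and Dlx6os1, tyrosine hydroxylase (Th) and Cdhr1 were higher in the olfactory-marker libraries. The table used here has no promoter for Omp.
Hoxa5 (chr6:52204588-52204837, minus strand): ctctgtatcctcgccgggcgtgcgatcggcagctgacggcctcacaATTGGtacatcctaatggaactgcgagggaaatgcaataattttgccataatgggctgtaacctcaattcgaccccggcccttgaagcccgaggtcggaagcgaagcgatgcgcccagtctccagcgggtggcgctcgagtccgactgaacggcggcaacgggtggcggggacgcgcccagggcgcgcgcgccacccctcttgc
Prph (chr15:99054924-99055173, plus strand): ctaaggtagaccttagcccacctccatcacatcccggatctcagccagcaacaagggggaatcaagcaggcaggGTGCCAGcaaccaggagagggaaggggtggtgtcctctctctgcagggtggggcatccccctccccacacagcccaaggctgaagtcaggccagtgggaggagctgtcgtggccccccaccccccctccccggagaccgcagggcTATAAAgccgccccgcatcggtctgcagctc
Tph2 (chr10:115185023-115185272, minus strand): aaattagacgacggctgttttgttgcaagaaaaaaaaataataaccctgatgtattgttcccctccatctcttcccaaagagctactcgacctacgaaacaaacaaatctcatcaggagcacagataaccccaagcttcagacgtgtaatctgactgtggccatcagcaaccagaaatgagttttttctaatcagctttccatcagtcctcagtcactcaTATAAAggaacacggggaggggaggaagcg
Dlx6os1 (chr6:6869534-6869783, minus strand): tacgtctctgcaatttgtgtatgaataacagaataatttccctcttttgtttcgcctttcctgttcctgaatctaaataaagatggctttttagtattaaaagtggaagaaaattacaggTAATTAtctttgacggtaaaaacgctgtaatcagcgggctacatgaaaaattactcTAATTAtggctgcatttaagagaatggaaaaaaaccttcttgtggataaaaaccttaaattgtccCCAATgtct
Th (chr7:142899996-142900245, minus strand): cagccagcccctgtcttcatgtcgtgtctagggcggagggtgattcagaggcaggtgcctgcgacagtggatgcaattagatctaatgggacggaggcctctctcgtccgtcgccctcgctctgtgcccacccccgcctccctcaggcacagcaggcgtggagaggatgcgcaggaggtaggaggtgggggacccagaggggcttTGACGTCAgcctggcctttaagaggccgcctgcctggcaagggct
Cdhr1 (chr14:37098348-37098597, minus strand): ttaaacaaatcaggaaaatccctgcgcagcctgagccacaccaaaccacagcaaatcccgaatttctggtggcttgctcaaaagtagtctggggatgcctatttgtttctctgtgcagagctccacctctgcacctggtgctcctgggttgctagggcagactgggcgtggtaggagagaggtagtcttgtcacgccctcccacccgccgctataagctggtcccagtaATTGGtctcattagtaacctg
The Tph2 and Prph promoters held TATAAA shortly before the start, the Th promoter held a full cAMP response element, and the Dlx6os1 promoter, from the first of its listed starts, held TAATTA at 2 places. Over the whole set, TAATTA was found in 4.37% of 389 windows of genes higher on the hindbrain-marker side, in 4.71% of 510 windows of genes higher on the olfactory-marker side and in 2.68% of 15947 windows of all genes tested. TATAAA was found in 9.25%, 13.1% and 6.95% of these windows, CCAAT in 38.6%, 32.4% and 34.9%, CTGGCAC in 5.40%, 4.90% and 4.28%, and TGACGTCA in 1.54%, 1.57% and 2.38%. A match is a string of letters and no measured site.

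Of 58 microRNA genes tested, 1 was at least 4-fold higher on the hindbrain-marker side and 7 on the olfactory-marker side without overlap of the libraries. Over all 16749 genes tested, the shares that did so were 2.75% and 3.17%. Counts on these short gene models in a library of long fragments read the precursor or host transcript and not the mature microRNA. The mature sequences of 6 of these loci follow, with the seed (bases 2 to 8) in capitals.
miR-219a-5p (chr2:29845689-29845709, minus strand): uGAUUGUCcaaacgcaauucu
miR-132-3p (chr11:75173723-75173744, plus strand): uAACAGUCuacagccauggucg
miR-212-3p (chr11:75173443-75173464, plus strand): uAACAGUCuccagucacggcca
let-7b-5p (chr15:85707325-85707346, plus strand): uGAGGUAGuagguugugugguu
let-7c-5p (chr15:85706616-85706637, plus strand): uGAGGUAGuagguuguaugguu
miR-9-5p (chr13:83738821-83738843, plus strand): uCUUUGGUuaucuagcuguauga
The miR-132-3p and miR-212-3p sequences shared the seed AACAGUC, and let-7b-5p and let-7c-5p shared GAGGUAG. The members of each pair lie on the same chromosome, 11 and 15. Mir219a-2, whose product is known from oligodendrocyte maturation, was read at 2.91 to 4.16 CPM on the hindbrain-marker side and at 0.166 to 1.25 CPM on the other. Mir132 ran the other way, with 0.132 to 0.233 CPM against 0.434 to 2.93 CPM, and so did its neighbour Mir212, with 0.0857 to 0.408 CPM against 0.558 to 3.49 CPM. Mirlet7b lay at 0.291 to 0.699 CPM against 2.61 to 5.92 CPM, Mirlet7c-2 at 0.3495 to 0.498 CPM against 1.56 to 3.96 CPM, and Mir9-2 at 0.595 to 0.971 CPM against 3.61 to 7.97 CPM. The remaining loci higher on the olfactory-marker side were Mir1900, at 1.98 to 4.197 CPM there, and Mir128-1, at 0.497 to 1.05 CPM. These levels are low, since 3 counts amounted to 0.0837 to 0.198 CPM in a library.

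The median total of the 11 libraries was 17635366 counts, and the range was 15170772 to 35850998. CPM below are scaled by TMM over the 11 libraries unless said otherwise, and log2 differences are from edgeR with genotype as a covariate, ± SE of the fit. Hindbrain-marker values are given in the order WT male 3, WT female 3, TG female 1, TG female 4. The side of each library was fixed by its own counts, so the differences between the sides are a description, and no p-value is given for them. In bulk RNA, fewer cells of a type and less RNA per cell cannot be told apart.

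Hoxa5 (chromosome 6, 52201754 to 52204587) lay at 70.3, 115, 124 and 89.9 CPM in the hindbrain-marker libraries and at 0 to 0.0943 CPM, with a median of 0, in the olfactory-marker libraries. Slc6a5, the glycine transporter that loads glycinergic nerve endings (chromosome 7, 49906984 to 49963864), lay at 82.8, 75.6, 63.4 and 105 CPM against 0 to 0.125 CPM. Omp (chromosome 7, 98143359 to 98145447) lay at 0.623, 1.40, 2.78 and 1.17 CPM against 44.1 to 162 CPM with a median of 92.0. Slc6a5 was not used to place a library. It was at or near 0 in the olfactory-marker libraries and passed the filter on low counts through the hindbrain-marker libraries. That its groups did not overlap is therefore no separate result. Slc6a5 differed by 10.37 ± 0.26 and Omp by -6.05 ± 0.57 on the log2 scale.

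**Figure D1:**
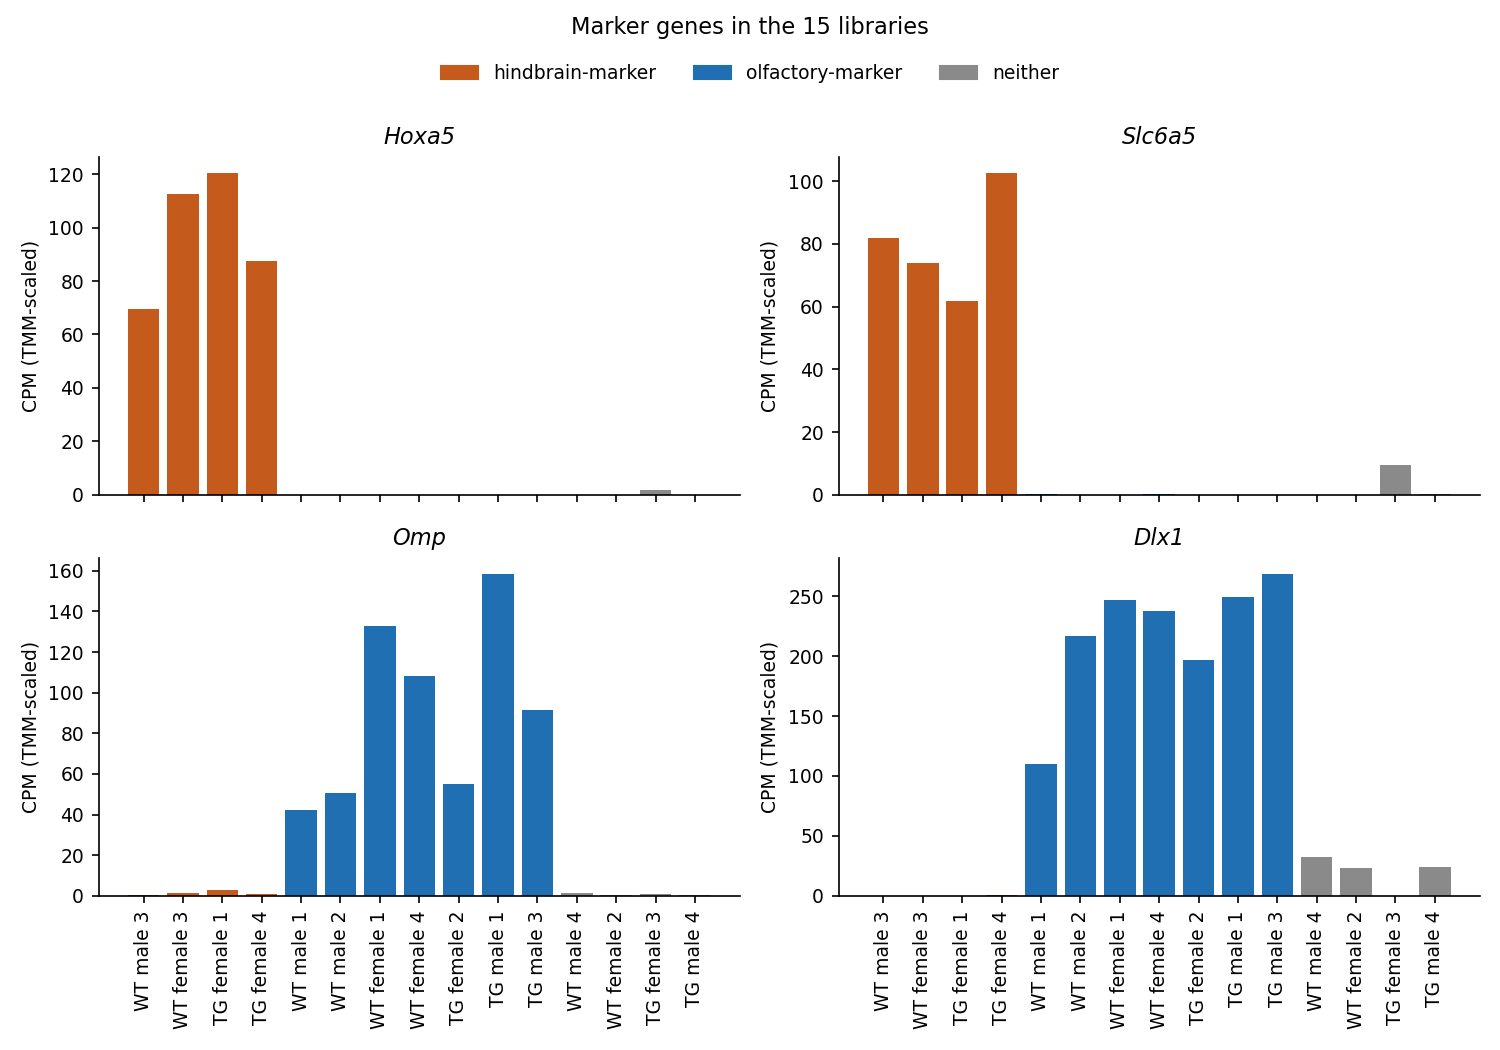
Level of 4 marker genes in all 15 libraries, as bars of CPM scaled by TMM over the 15, coloured by side. Hoxa5 and Slc6a5 are high in the 4 hindbrain-marker libraries, Omp in the 7 olfactory-marker libraries, and Dlx1, a forebrain factor, is near 0 in the hindbrain-marker libraries and in TG female 3.

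Tbr1, a transcription factor of cortical and mitral neurons, lay at 0.330 to 0.641 CPM in the hindbrain-marker libraries against 26.8 to 69.8 CPM, with a median of 52.0. Forebrain factors were thus low in 4 libraries labelled as hemisphere. Gabra6, which encodes a GABA-A receptor subunit found in granule neurons of the cerebellum, was at 0 to 1.20 CPM (scaled over 15 libraries) on the hindbrain-marker side, at 0 to 0.181 CPM on the olfactory-marker side and at 698 CPM in TG female 3. Of 22 cerebellar neuron genes tested, 3 were past the mark defined below on each side, with a median log2 difference of -0.69.

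Across all 16749 genes tested, 461 (2.75%) were at least 4-fold higher in the hindbrain-marker libraries with no overlap of the libraries' CPM, and 531 (3.17%) were so in the olfactory-marker libraries. This mark of 4-fold without overlap is used throughout, and these shares of all genes stand beside the counts of every list. A gene at or near 0 on one side passed the filter on low counts through the other side. That the sides of such a gene did not overlap is no separate result. Without the fold limit, 4117 genes (24.6%) were higher in every hindbrain-marker library than in any olfactory-marker library, and 4448 (26.6%) were lower. The median log2 difference over all genes was 0.0037. Of the genes past the mark, 115 on the hindbrain-marker side and 140 on the olfactory-marker side differed by at least 16-fold. Protein-coding genes made up 382 of the 461 and 446 of the 531, and long noncoding RNAs 45 and 51.

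**Figure D2:**
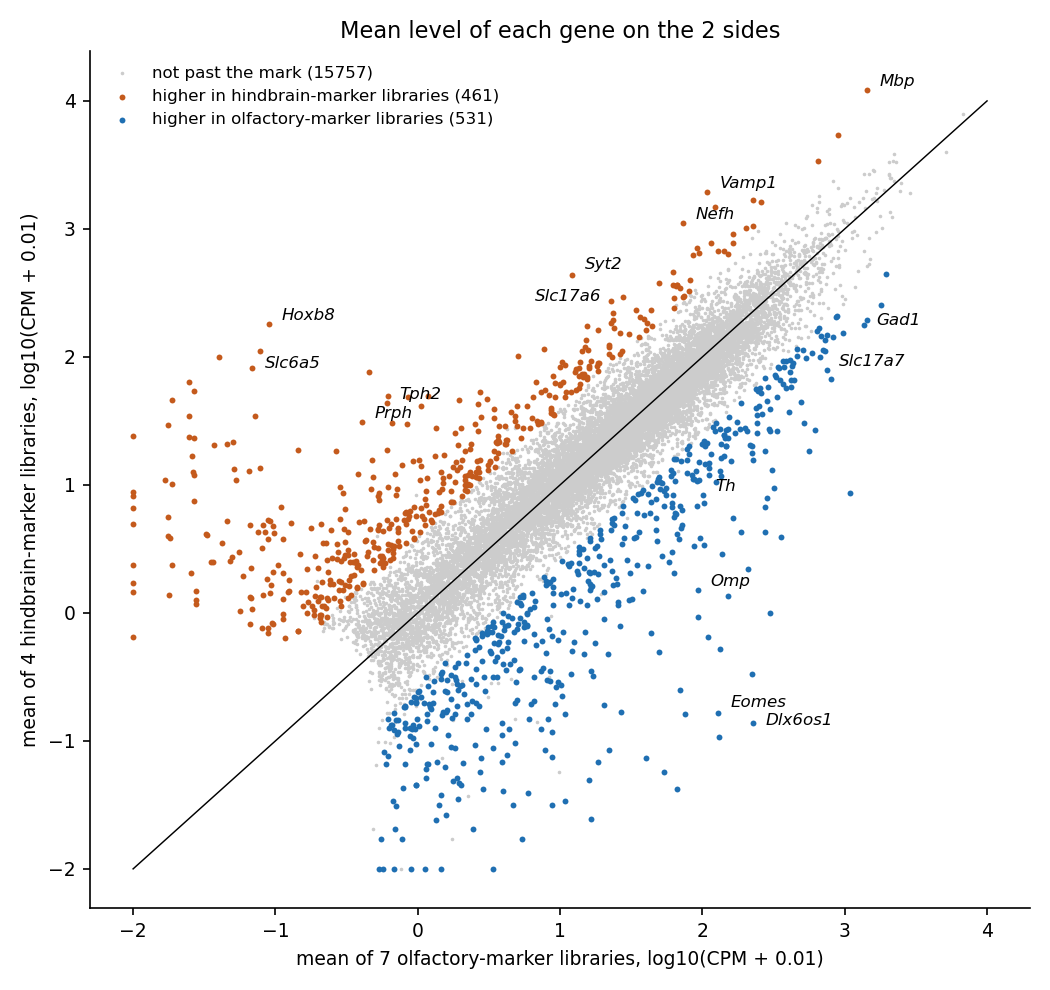
Mean CPM of each of the 16749 genes in the 7 olfactory-marker libraries (x) and the 4 hindbrain-marker libraries (y), both as log10(CPM + 0.01), with the line of equal level. The 461 genes past the mark on the hindbrain-marker side lie above the line and the 531 on the olfactory-marker side below it, with Hox genes and Slc6a5 at the left and Eomes and Dlx6os1 at the bottom.

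On the hindbrain-marker side, 11 of the 12 genes named by size were Hox genes, and the other was Slc6a5. Of 39 listed Hox genes, 21 passed the filter on low counts, and they passed it through the hindbrain-marker libraries, since all were at or near 0 in the others. Hoxa5, which placed the libraries, is among them. That all 21 were past the mark was therefore set by the filter and the rule and is no result. The place of Hox genes in the ranking by size is no result either, since their low side was at or near 0. Hoxb7 had 0 counts in all 7 olfactory-marker libraries and lay at 12.1, 26.7, 44.1 and 12.6 CPM, at least 951-fold higher against the limit of 3 counts over the group. Hoxc4 lay at 44.3, 51.9, 44.1 and 42.4 CPM against 0 to 0.0623 CPM. Hoxb3 lay at 57.6, 62.8, 67.5 and 68.5 CPM against 0 to 0.0559 CPM. Summed over the 21 genes, the level was 579 to 1084 CPM on the hindbrain-marker side and 0.169 to 0.872 CPM on the other.

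The 4 hindbrain-marker libraries were close to each other for Hox genes with low numbers and spread apart for those with high numbers. Among the 14 genes with paralog numbers 1 to 5, the highest library exceeded the lowest by 1.10 to 3.19 times, with a median of 1.27. Among the 7 genes numbered 6 to 8 the ratio was 2.65 to 9.06 with a median of 4.41, and TG female 1 was the highest library for all 7. Hoxb8 lay at 76.2, 207, 336 and 102 CPM. Hoxd8 lay at 2.99, 16.7, 27.1 and 3.26 CPM. Hoxa7 lay at 2.33, 8.69, 15.9 and 3.15 CPM. TG female 1 and WT female 3 were thus high and WT male 3 and TG female 4 low, for each of these 3 genes, and each pair holds a TG and a WT library. Hoxb9 was below the filter on low counts, with 12, 194, 302 and 25 counts in the same order, and 1 count over the olfactory-marker side. Of the 16 listed Hox genes numbered 9 or higher, none was tested.

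The reverse order appeared in genes of serotonin neurons, which lie in the raphe nuclei of the brainstem. Tph2, the enzyme that commits tryptophan to serotonin in neurons, lay at 129, 15.4, 9.32 and 20.3 CPM against 0.338 to 0.994 CPM in the olfactory-marker libraries. Slc6a4, the serotonin transporter, lay at 55.7, 5.20, 3.57 and 8.74 CPM against 0.112 to 0.424 CPM. Fev, the transcription factor of serotonin neurons, lay at 8.10, 1.46, 0.991 and 2.16 CPM against 0 to 0.168 CPM. WT male 3 was the highest and TG female 1 the lowest library for all 3 genes. Pou4f1, a POU-domain factor of sensory and brainstem neurons, was also highest in WT male 3, at 62.0, 22.2, 26.0 and 28.0 CPM.

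**Figure D3:**
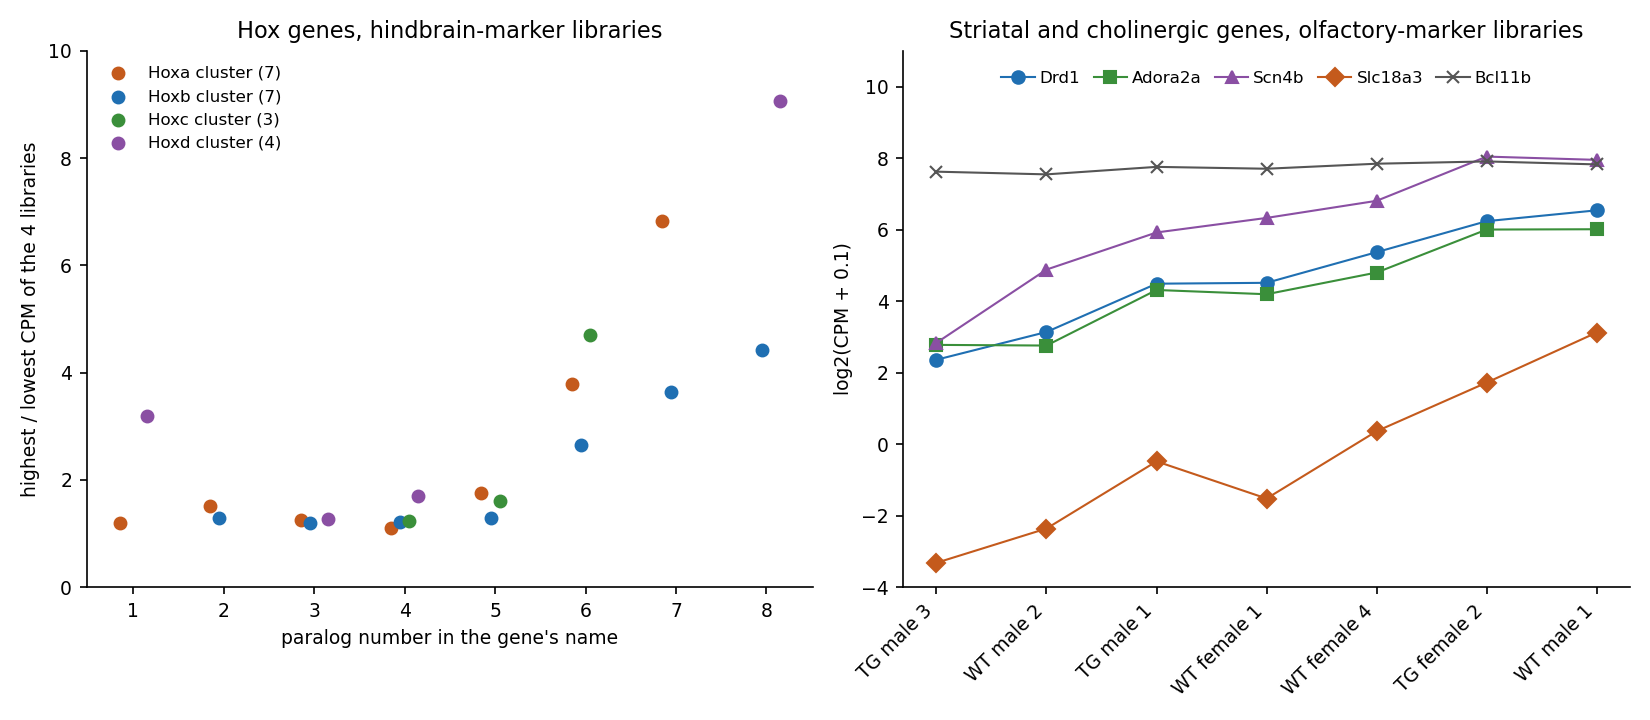
Left, ratio of the highest to the lowest CPM among the 4 hindbrain-marker libraries for each of 21 Hox genes, against the paralog number in its name: ratios are at most 3.19 for numbers 1 to 5 and 2.65 or more for numbers 6 to 8. Right, log2(CPM + 0.1) of 5 genes in the 7 olfactory-marker libraries ordered by Drd1: Drd1, Adora2a, Scn4b and Slc18a3 are highest in WT male 1 or TG female 2 and Bcl11b is nearly level.

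Of 28 other transcription factors of the hindbrain and midbrain, 21 were past the mark on the hindbrain-marker side and none on the other. The share of all genes on the hindbrain-marker side was 2.75%. The list's median log2 difference was 5.05. Members at or near 0 on the olfactory-marker side, Lbx1 and Pax2 among them, passed the filter on low counts through the hindbrain-marker libraries. Neither their lack of overlap nor the size of their difference is a separate result. Lbx1, a factor of dorsal hindbrain and spinal interneurons, lay at 5.48, 12.5, 12.9 and 12.99 CPM against 0 to 0.0472 CPM. Pax2, a factor of inhibitory interneurons, lay at 17.3, 19.1, 19.8 and 25.5 CPM against 0 to 0.189 CPM. Prdm8 was the only member of this list with a negative difference, at -0.49 ± 0.46, and its sides overlapped.

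Some transmitter genes differed between the sides, and most GABA-A and glutamate receptor subunits were short of the mark. Of 10 genes of glycine signalling, 4 had a negative difference and the sides of 4 overlapped. On the hindbrain-marker side 3 were past the mark, against 2.75% of all genes. Of these 3, Slc6a5 is no separate result, as said above. Besides Slc6a5 they were Glra1, the adult glycine receptor subunit, at 42.0, 57.7, 46.9 and 51.9 CPM against 0.331 to 1.12 CPM, and Glra3, at 3.12 to 6.61 CPM against 0.282 to 3.05 CPM. The difference of Glra3 was 2.13 ± 0.49, and it was 1.53 in the WT libraries alone. Gephyrin (Gphn), the scaffold shared by glycine and GABA-A receptors, differed by -0.21 ± 0.06 with overlap.

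Of 14 genes of monoamine neurons, 7 were past the mark on the hindbrain-marker side and 2 on the other. Over all genes, the shares were 2.75% and 3.17%. Dbh and Slc6a2, the dopamine β-hydroxylase and the transporter of noradrenaline neurons, were among the 7, Dbh with 5.98, 7.74, 5.09 and 7.22 CPM against 0.0563 to 0.434 CPM. The 2 that ran the other way were Th (chromosome 7, 142892779 to 142899995), which makes the dopamine precursor, and Slc6a3, the dopamine transporter. Th lay at 5.57, 9.40, 6.54 and 11.8 CPM against 55.2 to 129 CPM with a median of 107. Slc6a3 lay at 0.208, 0.257, 0.198 and 0.3495 CPM against 4.61 to 12.8 CPM. Dopaminergic periglomerular cells of the bulb are known to make Th. Tph2, Slc6a4, Fev, Dbh and Slc6a2 were thus past the mark on one side and Th and Slc6a3 on the other.

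Of 12 cholinergic and motor neuron genes, 8 were past the mark on the hindbrain-marker side, against 2.75% of all genes, and none on the other. Prph, an intermediate filament of motor and other peripherally projecting neurons, lay at 36.0, 24.6, 25.8 and 38.2 CPM against 0.141 to 0.576 CPM. Slc18a3, the vesicular acetylcholine transporter, lay at 27.3, 31.1, 26.5 and 26.3 CPM against 0 to 8.59 CPM with a median of 0.615. Among the olfactory-marker libraries, WT male 1 held the 8.59 CPM and the other 6 at most 3.19 CPM.

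Of 23 genes of large axons and fast-firing neurons, 10 were past the mark on the hindbrain-marker side, against 2.75% of all genes. The list's median was 1.93. Nefh, the heavy neurofilament of wide axons, lay at 1098, 1187, 1067 and 1075 CPM against 57.2 to 94.2 CPM. Vamp1, the vesicle SNARE of fast hindbrain and spinal synapses, lay at 1840.1, 1969, 1861 and 2065 CPM against 77.5 to 189 CPM. Syt2, the fast calcium sensor of release, lay at 398, 449, 407 and 491 CPM against 4.75 to 24.4 CPM. Syt1, the sensor of most forebrain synapses, ran the other way, at 539, 397, 413 and 436 CPM against 1758 to 2109.7 CPM. The pair of calcium sensors was on opposite sides, and in the list of 26 synaptic vesicle and release genes 2 were past the mark on each side, with a median of -0.08.

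Glutamate transporters of the synaptic vesicle formed a second such pair, within a list of 13 vesicular and uptake transporters of which 1 was past the mark on the hindbrain-marker side and 2 on the other. Slc17a6, known from subcortical neurons, lay at 295, 285, 297 and 291 CPM against 21.1 to 48.3 CPM with a median of 23.0, a log2 difference of 3.45 ± 0.19. Slc17a7, known from cortical neurons and mitral cells, lay at 75.1, 85.0, 65.4 and 91.1 CPM against 660.01 to 1022 CPM, a difference of -3.23 ± 0.15. Neither gene's libraries overlapped. Gad1, which makes GABA, lay at 178, 190, 154 and 189 CPM against 906 to 1624 CPM. Among 15 GABA-A receptor subunits, Gabrd, the δ subunit of extrasynaptic receptors, lay at 1.12, 2.37, 2.51 and 2.16 CPM against 50.7 to 75.9 CPM, and Gabrr2 was past the mark on the hindbrain-marker side. Of 25 glutamate receptor subunits, Grm2 and Grin2b were past the mark on the olfactory-marker side. Grin2b, a subunit of NMDA receptors, lay at 9.39, 14.97, 17.7 and 18.4 CPM against 88.6 to 98.4 CPM.

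**Figure D4:**
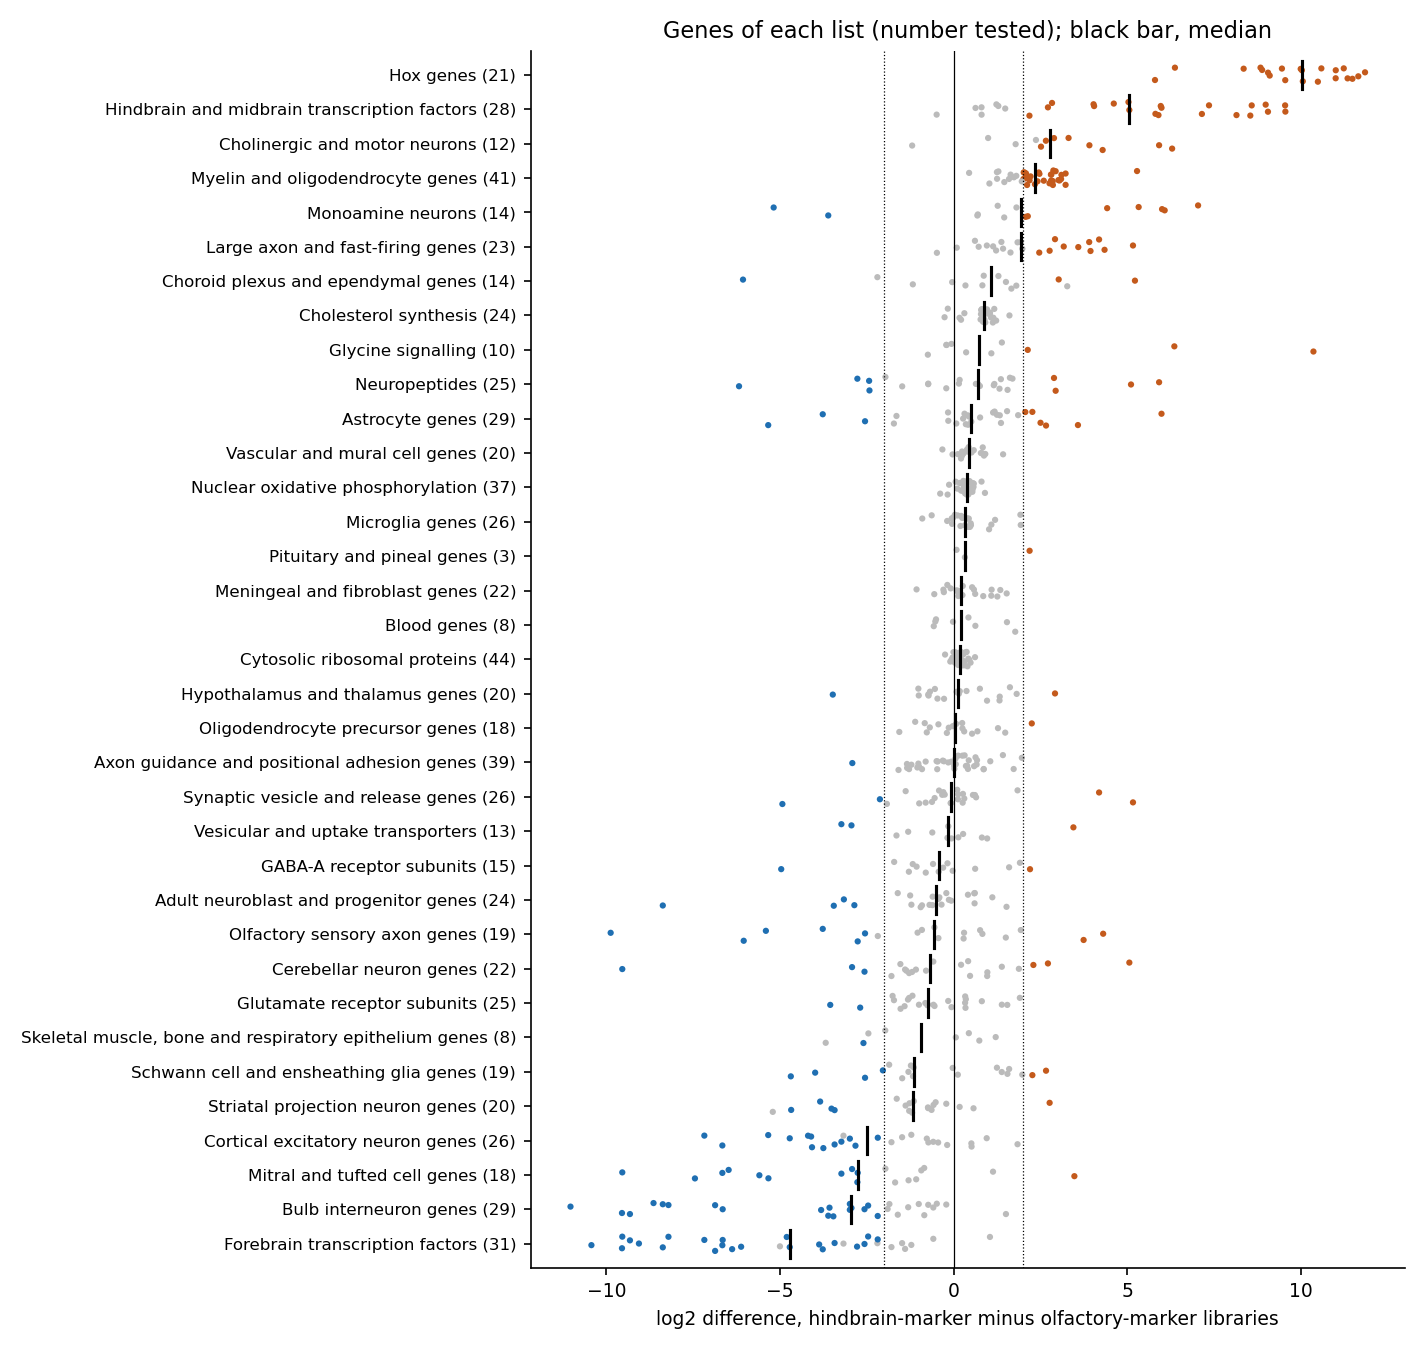
Log2 difference, hindbrain-marker minus olfactory-marker libraries, of every tested gene of 35 lists, with the number tested in parentheses and a black bar at the list's median; dotted lines are 4-fold. Orange points are past the mark on the hindbrain-marker side and blue points on the olfactory-marker side, and grey points beyond a dotted line have overlapping libraries. Hox genes lie farthest to one end, as the filter and the rule set, and forebrain transcription factors have a median of -4.72.

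On the olfactory-marker side, forebrain transcription factors had a median log2 difference of -4.72. Of 31, 22 were past the mark there, against 3.17% of all genes, and none on the other side. Members at or near 0 on the hindbrain-marker side, Dlx1 and Eomes among them, passed the filter on low counts through the olfactory-marker libraries. Neither their lack of overlap nor the size of their difference is a separate result. Dlx1, a homeodomain factor of forebrain GABA neurons (chromosome 2, 71528113 to 71533981), lay at 0.0831, 0.200, 0.198 and 0.816 CPM against 116 to 270 CPM with a median of 242. Dlx6os1, the noncoding RNA of the Dlx5 and Dlx6 locus, lay at 0.0415, 0, 0.0661 and 0.408 CPM against 115 to 289 CPM. TG female 4 had the highest value of the 4 hindbrain-marker libraries for both genes. Lhx9 had a positive difference, at 1.05 ± 0.38, and its sides overlapped.

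Interneuron genes of the bulb were past the mark in 18 of 29 cases, all on the olfactory-marker side, against 3.17% of all genes. Their median was -2.94. Their summed level was 1886 to 2143 CPM in the hindbrain-marker libraries and 5503 to 9275 CPM in the olfactory-marker libraries. Scgn, a calcium-binding protein of bulb interneurons, lay at 8.65 to 19.7 CPM on the olfactory-marker side, and there were 3 counts in all on the other. Against 3.17% of all genes, 4 of 24 genes of adult neuroblasts and progenitors were past the mark on the olfactory-marker side. Among them Dcx, the microtubule protein of migrating neuroblasts, lay at 31.8, 38.4, 40.4 and 38.2 CPM against 195 to 507 CPM with a median of 413. Stmn2 and Cd24a of that list were higher on the hindbrain-marker side, by 1.52 ± 0.20 and 1.12 ± 0.19.

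Mitral and tufted cells are the output neurons of the bulb. Against 3.17% of all genes, 10 of 18 genes of these cells were past the mark on the olfactory-marker side. Tbx21, a T-box factor of these cells, lay at 0.0831, 0.114, 0.264 and 0.175 CPM against 10.8 to 34.4 CPM. Eomes, a second T-box factor, lay at 0.125, 0.200, 0 and 0.291 CPM against 55.6 to 161 CPM. Cdhr1, a cadherin of mitral cells, lay at 4.40, 4.60, 4.23 and 2.33 CPM against 168 to 428 CPM with a median of 394. Lhx5 was past the mark against the direction of this list, at 13.5, 9.49, 8.72 and 12.1 CPM against 0.282 to 3.17 CPM. Lists share members, among them Eomes, Tbr1, Dlx1 and Dlx2, so the counts of different lists are not separate results.

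Genes of olfactory sensory axons did not move as a block. Of 19 tested, 6 were past the mark on the olfactory-marker side and 2 on the other, against 3.17% and 2.75% of all genes. Omp, S100a5, Stoml3 and Lhx2 were among the 6. Omp placed the libraries, so its separation was set by the rule and is no result. S100a5, a calcium-binding protein of sensory neurons, lay at 7.16 to 24.1 CPM in the olfactory-marker libraries, with a single count over the hindbrain-marker side. This gene passed the filter on low counts through the olfactory-marker libraries, and that its sides did not overlap is no separate result. The 2 against the list were Ebf3, at 53.8, 113, 154 and 88.4 CPM against 3.74 to 7.21 CPM, and Ebf1, at 6.85, 17.6, 20.9 and 11.1 CPM against 0.387 to 1.49 CPM. Both encode transcription factors that are also known from hindbrain and spinal neurons. Scgb1c1 and Cyp2f2, genes of the nasal lining, were spread over the olfactory-marker side, from 0.187 to 14.6 CPM and from 0.0623 to 6.201 CPM, and TG male 1 had the highest value of both.

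The olfactory-marker libraries also held genes of cortex and striatum in unequal amounts. Of 26 genes of cortical excitatory neurons, 13 were past the mark on that side, against 3.17% of all genes. Fezf2, a factor of deep-layer neurons, ran from 2.79 CPM in WT female 1 to 28.1 CPM in WT male 2. Of 20 genes of striatal projection neurons, 4 were past the mark on the olfactory-marker side and 1 on the other. The shares of all genes were 3.17% and 2.75%. Drd1, the dopamine receptor of the direct pathway, lay at 92.8, 8.68, 22.7, 41.2, 75.2, 22.3 and 5.03 CPM in WT male 1, WT male 2, WT female 1, WT female 4, TG female 2, TG male 1 and TG male 3. Adora2a, the adenosine receptor of the indirect pathway, lay at 64.2, 6.65, 18.2, 27.7, 63.9, 19.7 and 6.74 CPM in the same order. WT male 1 and TG female 2 were the highest for both genes, and WT male 2 and TG male 3 the lowest. Scn4b, a sodium channel subunit of striatal neurons and fast axons, had 247 and 263 CPM in that higher pair and 7.01 CPM in TG male 3, and it was higher still on the hindbrain-marker side, at 661 to 829 CPM. Bcl11b, a factor of both deep cortical and striatal neurons and of bulb interneurons, ran only from 186 to 239 CPM.

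Myelin genes took a larger share of the counts on the hindbrain-marker side. The 41 myelin and oligodendrocyte genes took 2.53% to 3.21% of the scaled counts in the hindbrain-marker libraries and 0.337% to 0.604% in the olfactory-marker libraries. Of the 41, 30 were past the mark on the hindbrain-marker side, against 2.75% of all genes, and none on the other. The median log2 difference was 2.34. Mbp, the myelin basic protein, lay at 12138, 13603, 12324 and 10876 CPM against 959 to 1923 CPM. Klk6, a protease of mature oligodendrocytes, had the greatest difference of the list at 5.28 ± 0.24, and it lay at 32.7, 40.5, 29.1 and 16.8 CPM against 0.276 to 1.67 CPM. Oligodendrocyte precursor genes had a median of 0.03, and C1ql1 alone of 18 was past the mark, at 99.9, 29.6, 38.3 and 43.9 CPM against 7.29 to 15.3 CPM. WT male 3 held the 99.9 CPM, and without that library the difference of C1ql1 was 1.68.

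Other glia split by gene. Of 29 astrocyte genes, 6 were past the mark on the hindbrain-marker side and 3 on the other, against 2.75% and 3.17% of all genes. Gfap, the astrocyte filament, lay at 1197, 2100.1, 2145 and 1055 CPM against 166 to 342 CPM. Agt, angiotensinogen, made by astrocytes of hindbrain and hypothalamus, lay at 148, 187, 200 and 165 CPM against 8.12 to 38.9 CPM. Fabp7, a lipid-binding protein of radial glia and of ensheathing glia in the olfactory nerve layer, ran the other way, at 10.97, 11.97, 10.04 and 10.02 CPM against 41.0 to 97.9 CPM. Of 19 genes of Schwann cells and ensheathing glia, 2 were past the mark on the hindbrain-marker side and 4 on the other, Frzb and Prss56 among the latter. Frzb, a secreted Wnt inhibitor, differed by -2.04 ± 0.24, and by -1.92 to -1.99 in 6 of the other settings tried.

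Some lists of cells and functions had no gene past the mark. This held for 26 microglia, 20 vascular and mural, 22 meningeal and fibroblast, 8 blood, 44 cytosolic ribosomal protein, 37 nuclear oxidative phosphorylation and 24 cholesterol synthesis genes. Their medians were 0.33, 0.44, 0.21, 0.20, 0.19, 0.38 and 0.88 in that order. Without the fold limit, 28 of the 37 oxidative phosphorylation genes, 19 of the 24 cholesterol synthesis genes and 15 of the 44 ribosomal protein genes were higher on the hindbrain-marker side with no overlap, against 24.6% of all genes. P2ry12, a receptor of resting microglia, lay at 37.9, 45.3, 37.1 and 32.9 CPM against 37.1 to 48.4 CPM, and the sides overlapped.

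Of 25 neuropeptide genes, 4 were past the mark on each side, against 2.75% and 3.17% of all genes. The peptide genes past the mark included Nppc, C-type natriuretic peptide, with a difference of 2.94 ± 0.21, and Nmb, neuromedin B, with -2.77 ± 0.21. Of 39 axon guidance and positional adhesion genes, 1 was past the mark, on the olfactory-marker side, and the median was 0.02, with 3.17% of all genes past the mark on that side. Of 20 hypothalamus and thalamus genes, 1 was past the mark on each side, with a median of 0.12.

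Markers of neighbouring tissues were few among the tested genes. Of 20 choroid plexus and ependymal genes, 14 were tested, 2 were past the mark on the hindbrain-marker side and 1 on the other. Ttr, which choroid plexus makes in very large amounts, lay at 3.24, 3.63, 0.991 and 2.16 CPM against 0.110 to 0.929 CPM. Of 14 pituitary and pineal genes, 3 were tested, and 1 was past the mark on the hindbrain-marker side. Of 23 genes of muscle, bone and respiratory epithelium, 8 were tested, and 1 was past the mark on the olfactory-marker side. The summed level of those 8 was 10.1 to 13.9 CPM on the hindbrain-marker side and 14.5 to 35.8 CPM on the olfactory-marker side. The part of any of these tissues in the differences above was not tested.

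Genotype was not used to place the libraries, so TG and WT could be tested on each side. With a term for side in the quasi-likelihood model of edgeR, 49 genes (0.293% of 16749) passed a Benjamini-Hochberg adjusted p of 0.05, 20 higher and 29 lower in TG. Within the hindbrain-marker side, with 2 TG and 2 WT libraries, 10 genes (0.0597%) passed, 4 higher and 6 lower. Within the olfactory-marker side, with 3 TG and 4 WT libraries, 29 genes (0.173%) passed, 10 higher and 19 lower. Of the 10, 8 also passed on the olfactory-marker side, which is 80% of the 10 and 27.6% of the 29. The 2 tests use different libraries but come from 1 fit that shares its estimate of the spread, so they are not independent. All 10 had the same sign there. Both TG libraries of the hindbrain-marker side were female and 1 of its 2 WT libraries was male, so sex was not balanced in that test. The genotype calls were unevenly placed. Of the 49 over both sides, 30.6% came from chromosome 18, which held 2.66% of the genes tested. Chromosome 1 gave 20.4% of them against 5.70% of genes, and chromosome 17 gave 14.3% against 4.76%. Chromosome 2 gave 14.3% against 7.66%. Chromosomes 5, 7, 9, 11 and 13 each gave a smaller share of calls than of genes. Chromosome 18 also gave 40% of the 10 and 31.0% of the 29. The cause of this placement was not tested.

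Mcm6, a subunit of the replicative helicase, fell in TG on both sides, and its call held in 1 of 11 fits with 1 library left out on the hindbrain-marker side and in 11 of 11 on the other. On the hindbrain-marker side it lay at 2.7001 and 2.94 CPM in WT male 3 and WT female 3 and at 0.793 and 0.641 CPM in TG female 1 and TG female 4. On the olfactory-marker side it lay at 3.42, 4.15, 4.77 and 4.50 CPM in the WT libraries and at 0.994, 0.670 and 0.939 CPM in the TG libraries. The groups did not overlap on either side. The log2 values were -1.98 ± 0.27 and -2.27 ± 0.20, and the adjusted p from edgeR was 0.0478 and 0.00164.

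Cd59a, an inhibitor of complement, fell by 1.18 ± 0.16 on the hindbrain-marker side, from 78.0 and 74.8 to 29.7 and 37.7 CPM, and by 0.91 ± 0.13 on the other, with edgeR adjusted p of 0.0478 and 0.0249. Its level was higher on the hindbrain-marker side in both genotypes. Nav1, a guidance protein of growing neurites, fell by 0.70 ± 0.10 and by 1.05 ± 0.08, with edgeR adjusted p of 0.0484 and 4.13e-04. Aldh7a1, an aldehyde dehydrogenase, fell by 0.81 ± 0.11 and by 0.71 ± 0.09, with edgeR adjusted p of 0.0478 and 0.00916. Pcdhga4, a neuronal adhesion protein of the γ-protocadherin cluster, rose by 1.31 ± 0.13 and by 0.74 ± 0.10, with edgeR adjusted p of 0.00366 and 0.0135. With 1 library left out, the hindbrain-marker calls of Cd59a, Nav1 and Aldh7a1 each held in 2 of 11 fits and that of Pcdhga4 in 9 of 11. The protocadherins of a cluster share exons, so reads could have been split between members and their single values are uncertain.

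Some genes passed on the olfactory-marker side and not on the other. Aim2, a sensor of cytosolic DNA, lay at 1.93 to 2.36 CPM in the 4 WT libraries and 5.08 to 6.18 CPM in the 3 TG libraries there, and rose by 1.33 ± 0.15 with an edgeR adjusted p of 0.00561. On the hindbrain-marker side it lay at 1.87 and 1.97 CPM in WT and 4.82 and 3.84 CPM in TG, a log2 value of 1.17 ± 0.20 with an edgeR adjusted p of 0.131. Tnnt2, cardiac troponin T, fell by 4.25 ± 0.55 on the olfactory-marker side, with an edgeR adjusted p of 0.0121, and had a log2 value of -5.33 ± 0.90 on the other, with an edgeR adjusted p of 0.131. For neither gene did the interaction pass, with an edgeR adjusted p of 0.977 for Aim2 and 0.976 for Tnnt2.

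Serpina3n, a protease inhibitor that reactive astrocytes make, rose on the olfactory-marker side. In those libraries it lay at 24.5, 21.9, 25.5 and 28.7 CPM in WT and 55.0, 45.4 and 40.2 CPM in TG, a log2 value of 0.90 ± 0.14 with an edgeR adjusted p of 0.0336. On the hindbrain-marker side it lay at 88.0 and 93.4 CPM in WT and 105 and 76.3 CPM in TG. The genotypes overlapped there, with a log2 value of -0.0032 ± 0.17. The interaction had a log2 value of -0.90 ± 0.22 and an edgeR adjusted p of 0.976, so a difference between the sides was not shown. The call for Serpina3n held in 2 of 11 fits with 1 library left out.

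**Figure D5:**
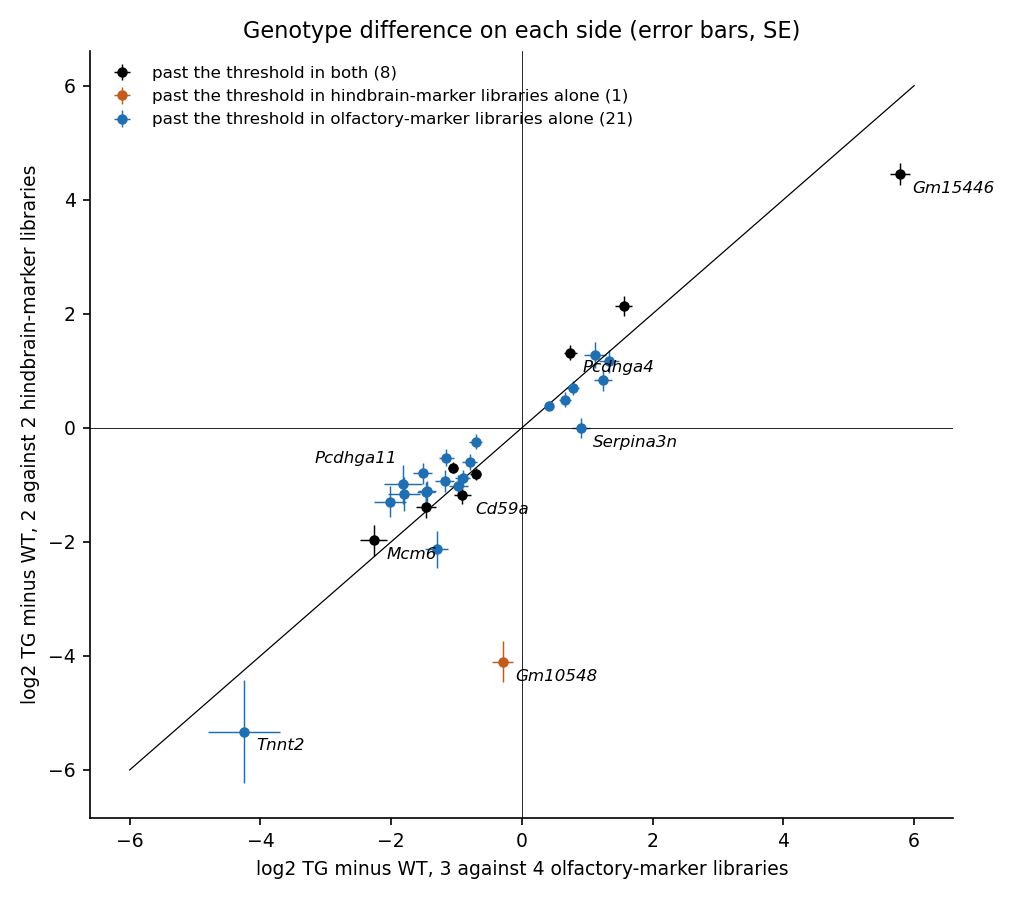
Log2 TG minus WT (error bars, SE) in the 7 olfactory-marker libraries (x) and the 4 hindbrain-marker libraries (y) for 30 genes called on either side, with the line of equal difference and 1 gene left out. The 8 genes called on both sides lie in the same quadrant pair, Gm10548 lies at -4.10 on the y axis and -0.30 on the x axis, and Serpina3n lies near 0 on the y axis.

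The genotype difference itself was tested against side in all 16749 genes. The interaction passed for 2 genes (0.0119%), 1 in each direction, with an unadjusted p under 0.05 for 592. Of the 2, Gm10548, a predicted gene (chromosome 18, 34207775 to 34221772), was named after its values were seen. It lay at 2.08 and 2.37 CPM in WT and at 0.132 and 0.117 CPM in TG on the hindbrain-marker side. On the olfactory-marker side it lay at 4.54 to 6.504 CPM in WT and 3.98 to 5.36 CPM in TG, which overlap. The difference of the differences was -3.81 with an edgeR adjusted p of 0.0186. Among genes that did not pass, the smallest p belonged to Sstr4, a somatostatin receptor, Ccp110, a centriole protein, and Ypel2, each with an edgeR adjusted p of 0.976.

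These genotype counts depended on single libraries and on the model. The count within the hindbrain-marker side was 4 to 14 with 1 library left out, with 4 without WT male 3, TG female 1 or TG female 4, 5 without WT female 4, TG female 2, TG male 1 or TG male 3, and 6 without WT female 1. That within the olfactory-marker side was 13 to 25, with 15 without TG female 2 or TG male 1 and 13 without TG male 3. The count over both sides was 28 to 48, with 28 without TG female 2, 29 without TG female 1, 31 without TG female 4 or TG male 3, and 32 without WT female 3 or TG male 1. The interaction count was 0 without WT female 3, TG female 4 or TG male 1, and 1 without WT male 2, WT male 3, WT female 4 or TG female 1. With a term for sex, 66 genes passed within the olfactory-marker side and 23 in the interaction.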

How the data were processed

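Bulk RNA-seq gene counts of 11 libraries were compared. The deposited values are raw counts per NCBI gene ID, made by the authors with STAR 2.7.5b, featureCounts and Subread on GRCm38, per the submitters' processing notes. The strand setting of the counting is not given in the sources used here. Of 27179 IDs, 25275 had a RefSeq symbol, and the 1904 without took 0.862% of the counts.

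Counts were filtered with filterByExpr, scaled by TMM and fitted with edgeR 4.0.16 (robust quasi-likelihood, Benjamini-Hochberg adjustment) in R 4.3.3, with side and genotype as terms and, for genotype within a side and for the interaction, 4 means. The test was tried on simulated data. Alternatives were limma 3.58.1 (voom), DESeq2 1.42.0, other scalings and filters, a sex term and leaving out each library. Genes named are the 12 with the greatest difference on each side, the extremes of each fixed list, those most spread within a side, and the leading genotype calls. The members and lists were chosen with earlier results of these data known, and some genes that the rules named are not reported here. Limits on 0 counts cover counting error only.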

Additional observations from a re-analysis of the deposited data

Results flagged for a closer look

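Over 138 checks, 15 found a library far from the others of its side, where chance gives about 1 in 20. The checks are not independent, since lists were checked beside their own members and most of the 15 are WT male 1. The 15 therefore cannot be weighed against that rate. The mean log2 CPM of the forebrain transcription factors was 1.05 in TG female 4 against -0.10 to 0.09 in the other hindbrain-marker libraries. TG female 4 also stood apart for GABA-A receptor subunits, at 4.98 against 4.66 to 4.71, and for 3 pituitary and pineal genes, at 1.19 against 0.76 to 0.78.

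WT male 1 stood apart from the other olfactory-marker libraries most often. Its mean log2 CPM was 4.16 for glycine signalling (others 3.43 to 3.68), 5.61 for GABA-A receptor subunits (4.99 to 5.12), 0.68 for pituitary and pineal genes (-0.30 to 0.08) and 6.36 for bulb interneuron genes (6.91 to 7.16). It was lowest for Dlx6os1 at 115 CPM (others 198 to 289), Dlx1 at 116 CPM (203 to 270) and Dlx2 at 37.4 CPM (64.4 to 79.9). It was also lowest for Eomes at 55.6 CPM (114 to 161), Ms4a15 at 28.5 CPM (62.0 to 78.9) and Scgn at 8.65 CPM (14.1 to 19.7). Without WT male 1, 553 and 566 genes were past the mark on the 2 sides.

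The mean log2 CPM of microglia genes was 4.19 in TG female 2 against 3.46 to 3.68, and that of nuclear oxidative phosphorylation was 5.43 in WT male 2 against 5.33 to 5.37. The genotype difference of Gm10548 differed between the sides by -3.81 on the log2 scale in edgeR's interaction test.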

How the results depend on the processing

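No result reversed. The counts of genes past the 4-fold mark became 1487 and 1450 with a 2-fold mark and ran from 449 to 553 and from 513 to 568 with 1 library left out. Genotype counts, in the order over both sides, within the hindbrain-marker side, within the olfactory-marker side and in the interaction, were 163, 62, 68 and 4 with DESeq2. Within the hindbrain-marker side 5 genes passed with scaling by library totals, with voom and with a fit that was not robust. With voom 1 interaction passed. A sex term gave 66 within the olfactory-marker side and 23 in the interaction. Leaving out 1 library gave 28 to 48, 4 to 14, 13 to 25 and 0 to 2. With the replicate number as a block the counts were 25, 2, 1 and 0, and whether the numbers mark a real pairing was not settled. The labels give no shared litter, batch or day for a number. Deviations correlated above 0.1 in 4 of 11 same-numbered pairs, with a median of -0.0138 against -0.237 in the other 34 pairs. Of 2710 values of 118 genes named for the sides, 14 lost the mark (Glra3, Gabrr2, C1ql1, Frzb and Tshb). Scaling moved the median of all genes by less than 0.1 on the log2 scale. The causes were not tested. Depth limits genes near 3 counts, and 2 TG and 2 WT libraries limit the test within the hindbrain-marker side.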
